A study of Mus musculus with 4 samples.

Results

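The glucocorticoid receptor and 7 genes known to answer it were followed through 12 cell classes of mouse kidney, 8 genes of the 31053 counted. They are *Nr3c1*, which encodes the receptor, and *Zbtb16*, *Fkbp5*, *Tsc22d3*, *Per1*, *Errfi1*, *Mt1* and *Mt2*, and all 8 were present under their symbols in each library. The genes were listed because values of the comparison of genotypes were already known. Their levels and fold changes are therefore described here without a test, and tests are reported only for other gene lists. Those lists too were chosen with earlier results of these data known, so their shares of tests past a threshold are descriptions.

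Single-nucleus RNA-seq was performed on 4 male mice of 12 weeks of age, with 1 library per mouse. Both knockout mice were Cre+,Tfap2aFlox/Flox, that is, Hoxb7Cre+;Tfap2a fl/fl, and both control mice were Cre-,Tfap2aFlox/Flox littermates, so the 4 mice all carried the floxed allele on both chromosomes and differed by the Cre transgene. *Hoxb7* drives Cre in the collecting ducts and the epithelium of the lower urinary tract, and excision removes exons 5 and 6 of *Tfap2a*, which encodes an AP-2 transcription factor. Proximal tubule, endothelium, interstitium and immune cells lie outside the collecting ducts. Only the central 1 to 2 mm of each kidney was used, after cortex was cut off in favor of medulla.

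The glucocorticoid receptor rests in the cytoplasm with heat shock proteins and, once bound to corticosterone, moves to the nucleus, where it acts on genes through response elements in DNA. In the kidney, glucocorticoids act on tubules as well as on endothelial, stromal and immune cells, and the enzyme encoded by *Hsd11b2* inactivates corticosterone in the distal tubule and collecting duct. Corticosterone in blood follows the time of day and rises with stress. *Fkbp5* encodes a co-chaperone that lowers the affinity of the receptor for its ligand, *Tsc22d3* encodes GILZ, an anti-inflammatory mediator, *Zbtb16* encodes the zinc finger protein PLZF, and *Per1* encodes a component of the circadian clock. *Errfi1* encodes MIG6, an inhibitor of EGF receptor signaling, and *Mt1* and *Mt2* encode metallothioneins, which bind zinc and other metals and answer metals as well as glucocorticoids.

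In the mouse assembly GRCm38.p6, which is the mm10 build of the counts, *Zbtb16* (ENSMUSG00000066687) lies on chromosome 9 from 48651797 to 48836225, *Fkbp5* (ENSMUSG00000024222) on chromosome 17 from 28398753 to 28486149, and *Tsc22d3* (ENSMUSG00000031431) on chromosome X from 140539528 to 140600522. *Per1* (ENSMUSG00000020893) lies on chromosome 11 from 69095108 to 69109965 and *Errfi1* (ENSMUSG00000028967) on chromosome 4 from 150853796 to 150868889. The identifier of *Nr3c1* is ENSMUSG00000024431. *Mt2* (ENSMUSG00000031762) and *Mt1* (ENSMUSG00000031765) are neighbors on chromosome 8, from 94172618 to 94173567 and from 94178883 to 94180327. They are related members of 1 gene family, and whether reads were shared between them was not measured here.

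Promoter windows of 300 bases from RefSeq (GRCm38.p6), which end shortly after a transcript start, were available for 6 of the 8 genes in 10 windows, and none was used for *Zbtb16* or *Nr3c1*. The 4 windows below are a choice among the 10. They belong to *Fkbp5* and *Per1*, whose levels differed between genotypes in many classes, and to *Mt1* and *Mt2*, whose levels did not. *Tsc22d3* also differed, in 7 of 12 classes, and its windows are not shown. Capitals mark CACGTG, the E-box bound by clock factors, and TGCGCNC or TGCACNC on either strand, the core of the metal response element.
*Fkbp5*, chr17:28486100-28486399, minus strand: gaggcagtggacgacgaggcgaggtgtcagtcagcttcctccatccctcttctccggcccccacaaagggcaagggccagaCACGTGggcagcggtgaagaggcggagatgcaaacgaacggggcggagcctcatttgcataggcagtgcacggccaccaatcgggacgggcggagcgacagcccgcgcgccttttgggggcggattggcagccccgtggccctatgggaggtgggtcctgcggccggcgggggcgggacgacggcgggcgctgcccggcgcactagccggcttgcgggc
*Per1*, chr11:69098699-69098998, plus strand: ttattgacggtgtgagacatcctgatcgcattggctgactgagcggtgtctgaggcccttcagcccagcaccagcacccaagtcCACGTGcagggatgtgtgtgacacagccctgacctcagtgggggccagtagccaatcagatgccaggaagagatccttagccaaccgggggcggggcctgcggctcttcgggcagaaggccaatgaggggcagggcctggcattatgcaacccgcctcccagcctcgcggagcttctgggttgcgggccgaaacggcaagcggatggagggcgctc
*Mt1*, chr8:94178839-94179138, plus strand: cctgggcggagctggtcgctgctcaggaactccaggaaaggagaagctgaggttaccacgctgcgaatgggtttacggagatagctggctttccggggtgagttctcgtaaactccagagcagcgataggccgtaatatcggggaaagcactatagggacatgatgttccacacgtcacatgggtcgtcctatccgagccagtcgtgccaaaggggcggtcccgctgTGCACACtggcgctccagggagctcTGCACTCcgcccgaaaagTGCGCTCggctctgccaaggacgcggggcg
*Mt2*, chr8:94172368-94172667, plus strand: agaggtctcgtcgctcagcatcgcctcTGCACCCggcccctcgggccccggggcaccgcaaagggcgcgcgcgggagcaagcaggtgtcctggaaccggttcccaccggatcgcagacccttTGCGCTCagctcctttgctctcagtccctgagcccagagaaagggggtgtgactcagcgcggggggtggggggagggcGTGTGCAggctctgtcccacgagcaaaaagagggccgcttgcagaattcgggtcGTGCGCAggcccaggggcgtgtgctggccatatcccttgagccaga

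The *Fkbp5* window and the *Per1* window shown each held 1 E-box, at 169 and 166 bases before the start, and 7.15% of 32851 promoter windows held one. The other *Per1* window, not shown, held no E-box and 1 core of the metal response element. No window of *Tsc22d3* or *Errfi1* held an E-box. The *Mt1* window held 3 and the *Mt2* window 4 cores of the metal response element, which 25.7% of all windows held. The full glucocorticoid response element, AGAACA followed after any 3 bases by TGTTCT, was in 0 of the 10 windows and in 0.00913% of all windows. Its 6-base arm AGAACA, searched on both strands, was in 19% of all windows and in 1 of the 10, the window of 1 of the 3 starts of *Tsc22d3*. A match of letters is a description and not a binding site, and a window without one says nothing of sites elsewhere in the gene.

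The libraries held 22179410 to 44964099 UMIs, and 27343 nuclei passed the filters, between 5430 and 7998 per mouse. Mitochondrial UMIs had a median of 0.417% to 1.66% per nucleus and were lowest in knockout mouse 2 and highest in control mouse 1, and nuclei held 84.3% of the UMIs of knockout mouse 2 against 48.2% to 64.6% in the other mice. The libraries differed by mouse number in both genotypes. Control mouse 1 and knockout mouse 1 had 42138345 and 44964099 UMIs and mitochondrial medians of 1.66% and 1.05%. Control mouse 2 and knockout mouse 2 had 24998797 and 22179410 UMIs and medians of 0.671% and 0.417%. The classes along the nephron were PT (proximal tubule), TAL and tL (the thick ascending and the thin limbs), DCT and CNT (the distal convoluted and the connecting tubules) and Podo (podocytes). CD-PC and CD-IC were the principal and intercalated cells of the collecting duct, DMEP the deep medullary epithelium of the pelvis, and EC, IntC and ImC were endothelial, interstitial and immune cells. They held from 13819 nuclei in PT to 106 in ImC, each with at least 3 of its markers. PT cells made up 36.1% of nuclei in control mouse 2 and 52.7% to 55.1% in the others. Any pair of libraries shared 7 to 18 cell barcodes. *Tfap2a* was counted from the 3' end, which lies outside the excised exons and checks no genotype. It stood at 55.9 and 95.7 CPM, the count scaled by all UMIs of the class in that mouse, in CD-PC of control mice 1 and 2 and at 62.7 and 107 CPM in knockout mice 1 and 2, and in DMEP it had 11 and 11 UMIs in the controls and 0 and 0 in the knockouts.

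*Nr3c1* was counted in every class of every mouse. Its mean level over the 4 mice was highest in IntC, at 309 ± 76.1 CPM (SD, n = 4), followed by EC at 297 ± 57.6 CPM, which was first after free RNA was subtracted or with the listed genes kept in clustering, PT at 248 ± 54.4 CPM and ImC at 235 ± 40.5 CPM. TAL, Podo, tL and CD-IC had means between 122 and 182 CPM, and DMEP, DCT and CD-PC means between 77.2 and 91.1 CPM. CNT was lowest at 34.8 ± 4.41 CPM, and its range of 30.1 to 40.7 CPM lay below that of its neighbor CD-PC, 66.4 to 96.4 CPM. The ranges of the other 10 pairs of neighbors in this order overlapped.

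*Zbtb16* had the widest range between classes of the 8 genes, 70.0-fold between the highest and lowest mean. It had a mean of 761 ± 491 CPM in IntC, 301 ± 229.8 CPM in EC, 199 ± 104 CPM in TAL and 165 ± 89.8 CPM in tL. CD-IC, ImC, CD-PC, CNT and DCT had means from 151 down to 75.7 CPM, DMEP and Podo 39.2 and 33.7 CPM, and PT 10.9 ± 10.1 CPM. None of the 11 neighbors in this order were apart by more than their spread over mice. Within each of the 4 mice, however, IntC stood above EC, TAL above tL and CD-IC above ImC. The means over 4 mice join both genotypes. In the control mice alone the mean was 376 CPM in IntC, 121 CPM in TAL, 119 CPM in CD-IC, 110 CPM in EC and 95.5 CPM in tL.

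*Fkbp5* had means of 297 ± 206 CPM in PT and between 277 and 293 CPM in ImC, IntC and DCT, an order that did not hold, since IntC was highest after doublets were left out or free RNA was subtracted, ImC without knockout mouse 1 and DCT without knockout mouse 2. It was lowest in CD-PC at 75.2 ± 20.9 CPM and DMEP at 45.7 ± 28.8 CPM. *Tsc22d3* had its highest means in CD-PC at 182 ± 24.8 CPM and in Podo at 179 ± 88.5 CPM, where Podo was first without either control mouse or after free RNA was subtracted and ImC with mitochondrial UMIs under 1%, and was lowest in CD-IC and TAL, at 35.5 ± 14.4 and 33.0 ± 10.1 CPM. *Per1* had a mean of 72.3 ± 36.6 CPM in Podo and of 8.27 ± 5.69 to 35.6 ± 21.5 CPM in the other classes. For these 3 genes each of the 11 pairs of neighboring classes overlapped. In the control mice alone *Fkbp5* was highest in DCT at 243 CPM, with 217, 190 and 185 CPM in ImC, IntC and PT. *Tsc22d3* was highest there in CD-PC at 172 CPM, with 132, 120 and 116 CPM in DMEP, ImC and Podo. *Per1* had control means of 51.8 CPM in ImC, from a few UMIs, and 48.7 CPM in Podo.

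*Errfi1* set PT and IntC apart. It stood at 1468 ± 228 CPM in PT and 1108 ± 203 CPM in IntC, and the lowest IntC value of 810.2 CPM lay above the range of tL, which had a mean of 335 ± 75.3 CPM. All remaining classes had means from 235 down to 63.9 CPM, the lowest in TAL. *Mt1* was highest in DCT at 451 ± 123 CPM, TAL at 378 ± 53.7 CPM, CD-IC at 346 ± 143 CPM and CNT at 332 ± 99.6 CPM. Its PT level of 28.1 ± 10.3 CPM lay apart from that of its neighbor EC, 81.3 ± 9.24 CPM. *Mt2* had the same class on top and at the bottom, with 56.2 ± 9.80 CPM in DCT and 2.11 ± 0.85 CPM in PT.

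RNA outside nuclei can add to such levels. In barcodes with under 100 UMIs, *Errfi1* stood at 406 to 802 CPM, and its level was below that of the same library in all 4 mice in 10 of the 12 classes, PT and IntC being the exceptions. *Mt1* was below it in all mice in 7 classes and *Mt2* in 4, PT among them. *Zbtb16* in PT, *Nr3c1* in CNT, *Tsc22d3* in TAL, *Per1* in DMEP and *Fkbp5* in tL, CD-PC and DMEP were below it in all mice as well. A level below that of free RNA need not be free RNA alone, which made up at most 3.43% to 49.7% of the UMIs of a class in a mouse. After free RNA was subtracted, *Mt1* in PT stood at 0 CPM in all 4 mice. *Tsc22d3* in TAL kept 23.5 and 25.9 CPM in control mice 1 and 2 and 29.9 and 44.4 CPM in knockout mice 1 and 2.

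**Figure D1:**
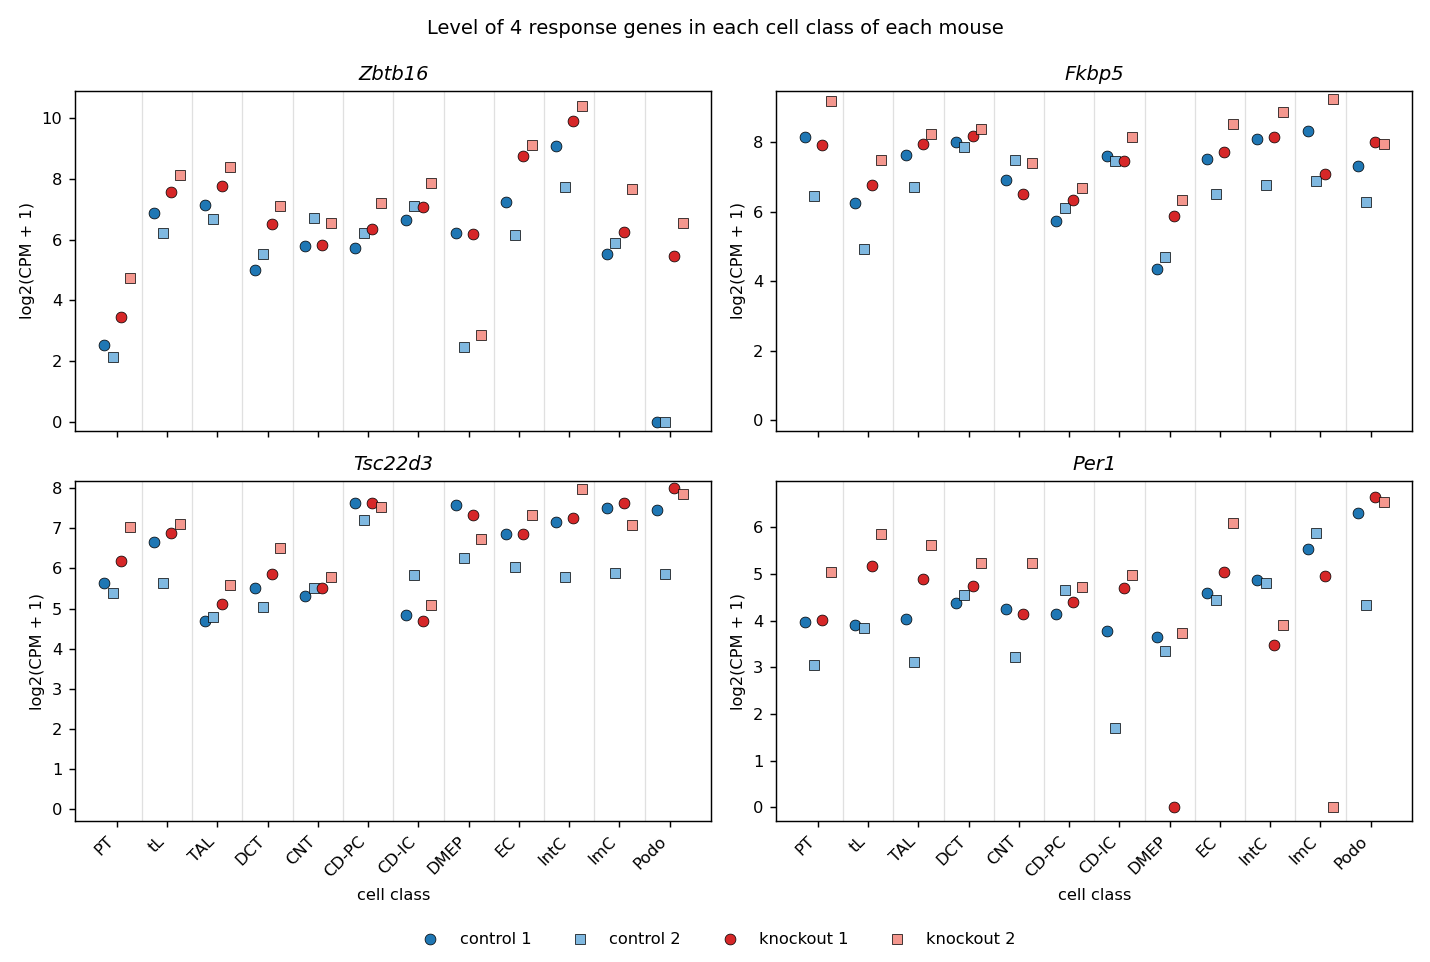
Level of *Zbtb16*, *Fkbp5*, *Tsc22d3* and *Per1*, as log2(CPM + 1) of UMIs summed over the nuclei of a class (y axis), in each of 12 cell classes (x axis). Each point is 1 mouse, blue for controls and red for knockouts. Knockout mouse 2 is the highest of the 4 mice in 10 of 12 classes for *Fkbp5*, and in CNT the genotypes overlap for all 4 genes.

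To ask whether the genotypes differed in each class beyond the spread between mice of 1 genotype, UMIs were summed per mouse and class. Of the 96 pairs of a gene and a class, 91 had at least 10 UMIs. The 5 that did not were *Zbtb16* in Podo, *Per1* in DMEP and ImC, and *Mt2* in ImC and Podo. In 36 of the 91 pairs both knockout mice were above both control mice, and in 7 both were below. Over all 133087 pairs of a gene and a class, both knockout mice were above in 14.7% and below in 15.1%. Nothing can be read from the excess of the 8 genes, which were chosen on this contrast. *Zbtb16*, *Fkbp5*, *Tsc22d3* and *Per1* accounted for 30 of the 36 pairs, out of 45. The other 4 genes were above in 6 and below in 6 of their 46 pairs. The 12 classes of a mouse come from 1 library and are not independent of each other.

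*Zbtb16* had the largest differences. In EC it stood at 149 and 69.8 CPM in control mice 1 and 2 and at 427 and 558 CPM in knockout mice 1 and 2, a log2 fold change of 2.15 ± 0.33 (SE) from edgeR. Its level in IntC was 543 and 210.0 CPM in controls and 951 and 1341 CPM in knockouts, and the log2 fold change was 1.59 ± 0.46. In both classes both knockout mice were above both control mice. TAL had 139.7 and 102 CPM in controls against 216 and 337 CPM in knockouts (log2 fold change 1.19 ± 0.29), and DCT had 31.0 and 44.6 against 90.0 and 137 CPM (1.58 ± 0.39). The tL values were 118 and 73.1 against 190.4 and 278 CPM (1.29 ± 0.33). In each of these classes the difference of the means on a log2 scale exceeded the difference between the mice of either genotype. In PT the 4.82 and 3.42 against 9.86 and 25.4 CPM gave a log2 fold change of 2.04 ± 0.50, at levels below those of free RNA in the same libraries.

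In CNT and the collecting duct the values of *Zbtb16* were as follows. CD-PC stood at 52.4 and 74.1 CPM in the control mice and at 80.9 and 145 CPM in the knockout mice (log2 fold change 0.80 ± 0.34). In CD-IC the genotypes overlapped, with 99.98 and 138 against 133 and 233 CPM. In CNT they were alike in level, with 54.3 and 103 CPM in controls and 55.6 and 92.6 CPM in knockouts (log2 fold change -0.08 ± 0.41). In DMEP the replicates were far apart within each genotype, at 73.4 and 4.56 against 72.5 and 6.19 CPM. In Podo, knockout mice 1 and 2 had 3 and 6 UMIs of it and the controls 0. Over the 11 classes with at least 10 UMIs the fold change was above 0 in 10, the genotypes did not overlap in 8, and the median log2 fold change was 1.19, beside 0.0048 over all genes and classes.

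*Fkbp5* was higher in both knockout mice in 8 of 12 classes, with a median log2 fold change of 0.88. EC had 183 and 90.4 CPM in control mice 1 and 2 and 209.9 and 368 CPM in knockout mice 1 and 2 (log2 fold change 1.06 ± 0.34). The TAL values were 199 and 104 against 244 and 299.8 CPM (0.83 ± 0.32), and those of DCT 257 and 229 against 288 and 332 CPM (0.33 ± 0.29). In PT, control mouse 1 at 284 CPM was above knockout mouse 1 at 239.7 CPM, while control mouse 2 had 86.4 and knockout mouse 2 had 579 CPM. There the log2 fold change of 1.11 ± 0.65 was smaller than the log2 difference of 1.71 between the control mice.

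The smaller classes showed both patterns for this gene. In tL, levels of 74.4 and 29.3 CPM in controls stood against 108 and 179.9 CPM in knockouts (1.49 ± 0.41), and in DMEP 19.3 and 25.1 against 58.0 and 80.5 CPM (1.65 ± 0.54, from 37 UMIs). CD-PC had 51.7 and 67.9 against 80.0 and 101 CPM (0.58 ± 0.29). In tL, DMEP and CD-PC these levels lay below the free RNA of the same libraries in all 4 mice. CNT and CD-IC overlapped, CNT with 119.9 and 178 against 90.3 and 168 CPM and a log2 fold change of -0.20 ± 0.38.

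*Tsc22d3* differed in fewer classes and by less, with no overlap in 7 of 12 classes and a median log2 fold change of 0.62. In PT it stood at 49.1 and 40.7 CPM in the control mice and at 71.2 and 129 CPM in the knockout mice (1.13 ± 0.31), and in DCT at 44.2 and 31.9 against 57.0 and 89.3 CPM (0.88 ± 0.40). In CD-PC the 198 and 146 CPM of controls and the 198 and 185 CPM of knockouts overlapped (0.16 ± 0.28). CD-IC was the only class with a fold change below 0, at 27.7 and 56.6 against 24.9 and 32.9 CPM (-0.53 ± 0.47). In 3 of the 12 classes the genotypes differed by more than the mice of either genotype did.

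*Per1* rested on fewer UMIs, 1538 over all classes. In TAL it stood at 15.5 and 7.60 CPM in control mice 1 and 2 and at 28.9 and 48.3 CPM in knockout mice 1 and 2 (log2 fold change 1.75 ± 0.41), and in tL at 14.0 and 13.4 against 35.1 and 56.8 CPM (1.73 ± 0.42). EC had 23.0 and 20.6 against 31.8 and 67.1 CPM (1.12 ± 0.39). Both knockout mice were above both controls in 7 of the 10 classes with at least 10 UMIs. IntC went the other way with 28.3 and 27.1 against 10.1 and 14.0 CPM, which were 5, 4, 1 and 1 UMIs. In CD-PC, 16.8 and 24.2 CPM in controls and 20.0 and 25.3 CPM in knockouts overlapped (0.11 ± 0.37).

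**Figure D2:**
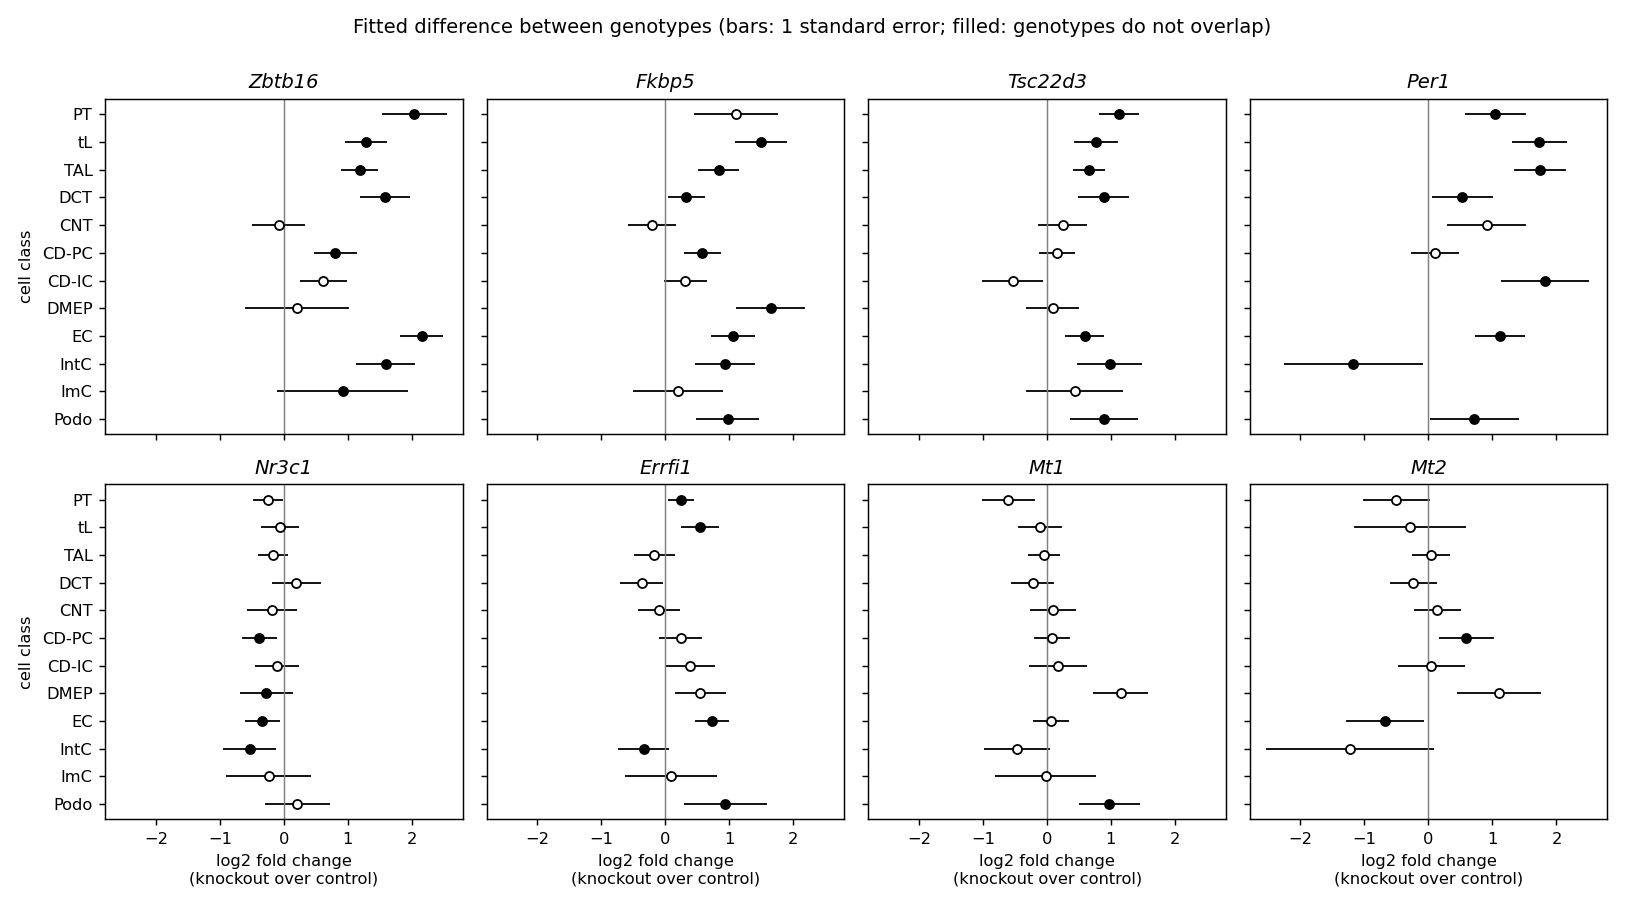
Fitted log2 fold change of knockout over control mice (x axis) of the 8 genes in each cell class (y axis), with bars of 1 standard error from edgeR (n = 2 mice per genotype). Filled points mark classes where the genotypes do not overlap, 8 for *Zbtb16* and for *Fkbp5*, 7 for *Tsc22d3* and 8 for *Per1*, 1 of which is lower. A class with under 10 UMIs has no point.

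*Nr3c1* had fold changes mostly on the other side of 0 from those of *Zbtb16*, *Fkbp5*, *Tsc22d3* and *Per1*, and no difference between the genes was tested. It had a fold change below 0 in 10 of 12 classes, with a median of -0.21, and both knockout mice were below both control mice in 4, namely CD-PC, DMEP, EC and IntC. In IntC it stood at 317 and 413 CPM in control mice 1 and 2 and at 253 and 251 CPM in knockout mice 1 and 2 (log2 fold change -0.54 ± 0.41). EC had 285 and 381 against 252 and 269 CPM (-0.33 ± 0.27), and CD-PC had 96.4 and 78.2 against 66.4 and 67.9 CPM (-0.38 ± 0.27). In PT the control mice, at 207 and 327 CPM, spanned the knockout mice at 219.9 and 236 CPM. Each of these fold changes was within 2 standard errors of 0, which is a description and not a test. Without control mouse 2 the median over classes was 0.0012.

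*Errfi1* was higher in both knockout mice in 4 classes and lower in 1, IntC. In PT it had 1429 and 1232 CPM in the control mice and 1430.4 and 1779.7 CPM in the knockout mice (0.25 ± 0.20), where control mouse 1 and knockout mouse 1 differed by less than 2 CPM. IntC had 1244 and 1233 against 1144 and 810.2 CPM (-0.34 ± 0.40). The tL and EC values, 269.8 and 271 against 388 and 411 CPM and 185 and 169.7 against 241 and 343 CPM, lay below the free RNA of their libraries. After free RNA was subtracted, both knockout mice were above both controls in 0 of 11 classes and below in 3, where 16.2% of all genes and classes were below, and the median turned from 0.24 to -0.39.

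*Mt1* and *Mt2* showed no common direction, with fold changes above 0 in 6 of 12 and 5 of 10 classes and medians of 0.03 and -0.10. In TAL *Mt1* had 406 and 359 CPM in control mice 1 and 2 and 434 and 312 CPM in knockout mice 1 and 2 (-0.05 ± 0.25), and in DCT 611 and 354 against 487 and 355 CPM (-0.22 ± 0.34). Knockout mouse 2 was the highest of the 4 mice in 2 classes. For *Mt2* the genotypes were apart in CD-PC, at 11.2 and 11.3 against 19.1 and 14.7 CPM, and in EC, at 10.5 and 11.1 against 7.07 and 5.75 CPM, from 70 and 27 UMIs. In Podo *Mt1* was higher, with 157 and 95.2 against 285 and 245 CPM (0.97 ± 0.48, from 59 UMIs).

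**Figure D3:**
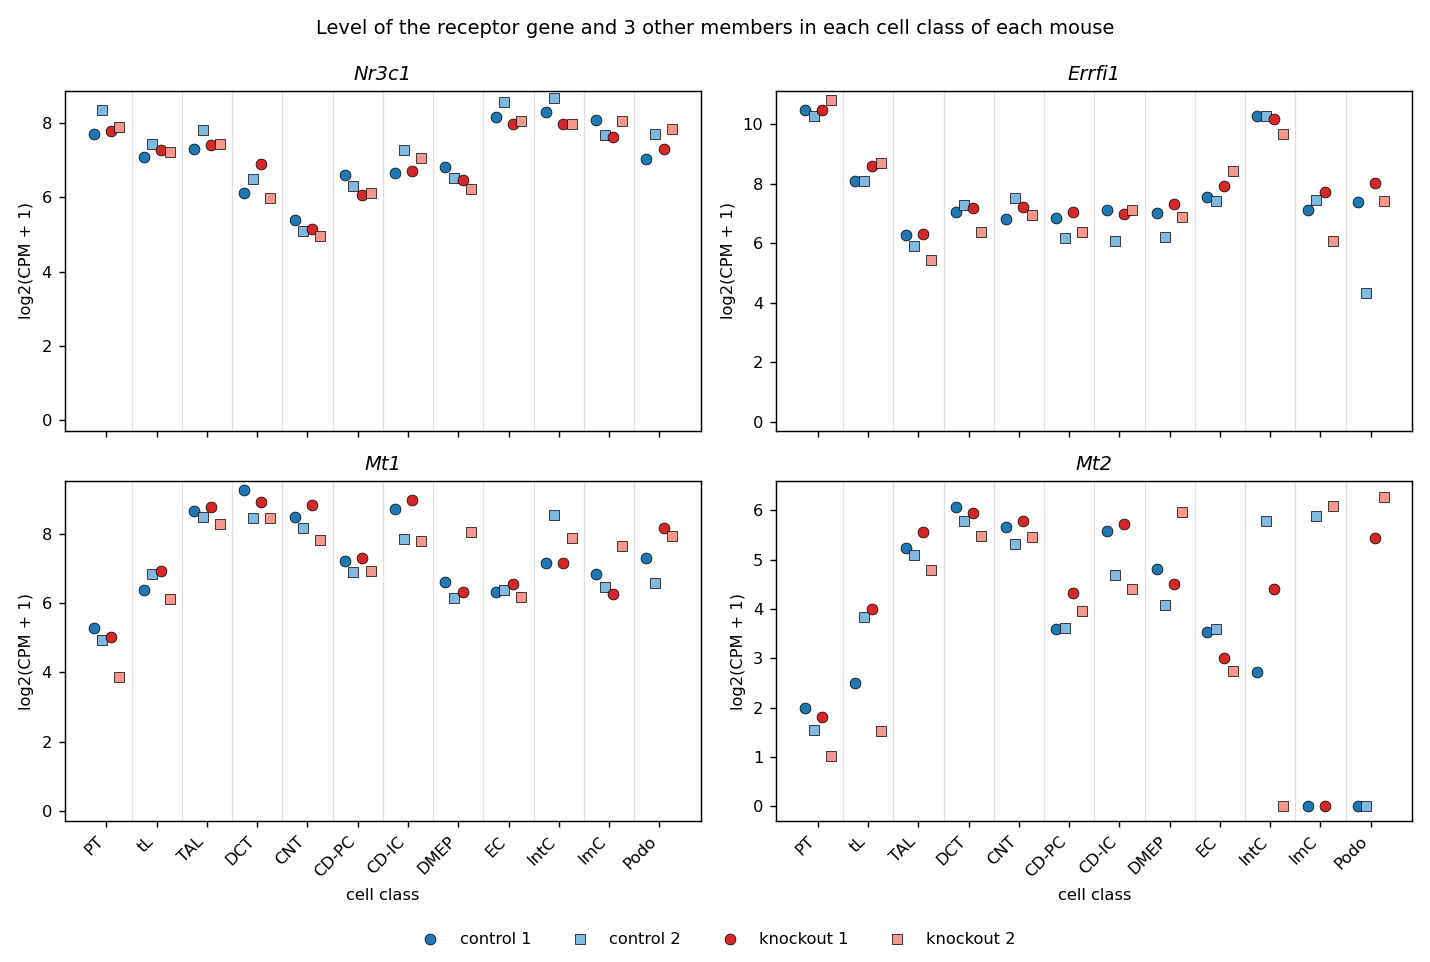
Level of *Nr3c1*, *Errfi1*, *Mt1* and *Mt2*, as log2(CPM + 1) of UMIs summed over the nuclei of a class (y axis), in each of 12 cell classes (x axis), with 1 point per mouse, blue for controls and red for knockouts. *Errfi1* is highest in PT and IntC in both genotypes, and the mean over the 4 mice of *Mt1* and of *Mt2* is lowest in PT.

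Read by class, the 4 genes *Zbtb16*, *Fkbp5*, *Tsc22d3* and *Per1* were all higher in both knockout mice in tL, TAL, DCT and EC, where 17.0%, 14.6%, 15.0% and 14.0% of all genes were. In PT 3 of the 4 were (16.6% of all genes), and in CD-PC 2 of the 4 (13.1%). In IntC 3 of 4 were (13.8%), in Podo 3 of 3 (16.9%), in CD-IC 1 of 4 (13.8%), in ImC 1 of 3 (15.1%) and in DMEP 1 of 3 (13.0%). In CNT 0 of the 4 were (13.7%). Their median log2 fold change was 1.39 in tL, 1.12 in PT, 1.09 in EC, 1.01 in TAL, 0.37 in CD-PC and 0.08 in CNT. EC, PT, TAL, tL and DCT lie outside the collecting ducts, where Cre is active. Whether the differences were larger there than in the collecting duct was not tested.

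Within CD-PC, *Zbtb16*, *Fkbp5*, *Tsc22d3* and *Per1* were each higher in both knockout mice in 1 of its 2 clusters, and 13.0% of all genes were over both clusters. In the cluster led by *Aqp2*, *Aqp4* and *Wnt4*, *Zbtb16* stood at 26.7 and 44.0 CPM in the control mice and at 72.5 and 134 CPM in the knockout mice, and *Fkbp5* at 32.4 and 36.9 against 63.9 and 85.5 CPM. In the cluster led by *Aqp2*, *Hsd11b2* and *Frmpd4* the genotypes overlapped for both, with *Zbtb16* at 122 and 117 against 90.2 and 166 CPM. The 6 CNT markers summed to 974 and 973 CPM in CD-PC of the control mice and to 2556 and 1263 CPM in the knockout mice, each with UMIs in both genotypes, and the 5 DCT markers to 116 and 127 against 249 and 260 CPM. The part of these shifts and of the mix of clusters in the CD-PC values was not tested. In the 6 clusters of PT, both knockout mice were above both controls in 6 for *Tsc22d3*, in 5 for *Zbtb16*, in 4 for *Per1* and in 1 for *Fkbp5*, and 18.2% of all genes and PT clusters were.

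PT markers differed between genotypes in 2 of the classes above. In EC the 9 PT markers, all with UMIs in both genotypes, summed to 2521 and 2132 CPM in the control mice and 3057 and 2528 CPM in the knockout mice, and in tL to 2180.2 and 1442 against 3256 and 2496 CPM. Their part in the values of those classes was not tested. In PT itself *Zbtb16* had 3.42 to 25.4 CPM, *Fkbp5* 86.4 to 579 CPM, *Tsc22d3* 40.7 to 129 CPM and *Per1* 7.24 to 31.9 CPM. In EC the IntC markers, 7 of 8 with UMIs in both genotypes, summed to 51.7 and 36.5 against 62.5 and 115 CPM.

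The mice were not alike within a genotype. Their libraries also differed by mouse number in depth and mitochondrial share, as given above, and the part of this in the values was not tested. Knockout mouse 2 was the highest of the 4 mice in 9 of 11 classes for *Zbtb16*, 10 of 12 for *Fkbp5*, 7 of 12 for *Tsc22d3* and 8 of 10 for *Per1*. Control mouse 2 was the lowest in 6, 9, 9 and 7 classes. The median log2 difference between the 2 control mice over classes was 0.51 for *Zbtb16*, 0.96 for *Fkbp5*, 0.91 for *Tsc22d3* and 0.72 for *Per1*, and that between the 2 knockout mice was 0.73, 0.70, 0.46 and 0.59. For *Fkbp5* and *Tsc22d3* the controls thus differed from each other by more than the median fold change between genotypes. Without knockout mouse 2 the medians were 1.09 for *Zbtb16*, 0.48 for *Fkbp5*, 0.45 for *Tsc22d3* and 0.51 for *Per1*, and without control mouse 2 they were 1.06, 0.47, 0.33 and 0.64. When mice were left out singly, the fold change stayed above 0 in 9 classes for *Zbtb16* and *Fkbp5* and in 8 for *Tsc22d3* and *Per1*.

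*Zbtb16*, *Fkbp5*, *Tsc22d3* and *Errfi1* were also higher in both knockout libraries in RNA outside nuclei, where 27.9% of all genes were. In barcodes under 100 UMIs, *Fkbp5* stood at 86.0 and 72.3 CPM in control mice 1 and 2 and at 118 and 214 CPM in knockout mice 1 and 2, *Tsc22d3* at 32.2 and 30.7 against 52.4 and 100.5 CPM, and *Zbtb16* at 24.1 and 13.3 against 33.3 and 37.7 CPM. *Errfi1* stood at 476 and 406 against 558 and 802 CPM. *Per1* overlapped, with 19.6 and 9.33 against 15.1 and 38.0 CPM, as did *Nr3c1*, *Mt1* and *Mt2*. This RNA made up at most 3.43% to 49.7% of the UMIs of a class in a mouse. After it was subtracted, both knockout mice were above both controls in 9 of 11 classes for *Zbtb16*, 8 of 12 for *Fkbp5*, 6 of 12 for *Tsc22d3* and 7 of 9 for *Per1*, where 15.5% of all genes and classes were. In EC *Zbtb16* then stood at 204 and 89.1 against 658 and 805 CPM.

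**Figure D4:**
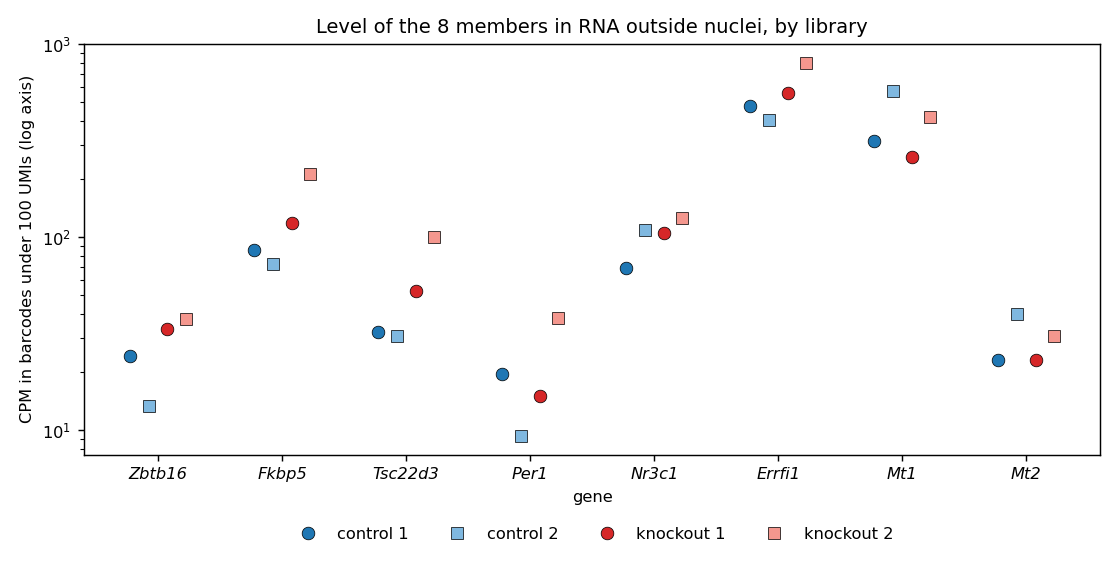
Level of the 8 genes in CPM (y axis, log scale) in barcodes with under 100 UMIs, by gene (x axis), with 1 point per library, blue for controls and red for knockouts. Both knockout libraries are above both control libraries for *Zbtb16*, *Fkbp5*, *Tsc22d3* and *Errfi1*.

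The 20 genes of the receptor machinery list, the corticosteroid enzymes, chaperones and cofactors that act with the receptor, gave 222 tests over the classes. At a Benjamini-Hochberg adjusted p under 0.05, taken over the genes of a class, edgeR's quasi-likelihood test called 0 of them, as did DESeq2, and 0.00676% of all tests passed. At an unadjusted p under 0.05, 2 were higher and 3 lower in knockout mice, where 1.48% and 1.69% of all tests were. The median log2 fold change was 0.06. The 2 higher tests were of *Hsd11b2*, which had a median of 0.46 over 10 classes. The 3 lower ones were of *H6pd*, which had a median of -0.19 over 11 classes. *Nr3c2*, which encodes the mineralocorticoid receptor, had a median of 0.05 over classes, and *Hsd11b1*, whose product regenerates corticosterone, one of 0.24. These genes were named after their values were seen, as were all genes of the lists named from here on.

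Of the other glucocorticoid response genes, 32 of 33 were measured, in 301 tests. edgeR called 0, and DESeq2 called *Irs2* in PT, which was lower in knockout mice (adjusted p = 0.00137 by DESeq2). *Irs2*, an adaptor of insulin signaling, stood there at 89.2 and 189 CPM in the control mice and 21.2 and 40.9 CPM in the knockout mice, and its adjusted p by edgeR was 0.999. At an unadjusted p under 0.05, 18 of the 301 were higher and 10 lower, together 9.30% against 3.17% of all tests, and the median log2 fold change was 0.10. The list thus did not share the direction of the 4 genes above in all its members. *Pck1* and *G6pc*, which encode enzymes of gluconeogenesis, had medians of 0.79 and 0.70 over 12 classes, and *Pck1* in PT stood at 449 and 504 against 792 and 876 CPM. They gave 5 and 4 of the 18 higher tests, in classes of the same mice. The part of free RNA or of RNA from PT in their values in other classes was not tested. *Sgk1*, a kinase that regulates sodium transport, had 736 and 522 CPM in CD-PC of control mice and 655 and 581 CPM in knockout mice. *Fam107a* had a fold change below 0 in 8 of 8 classes, with a median of -0.95. None of these passed edgeR's threshold.

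**Figure D5:**
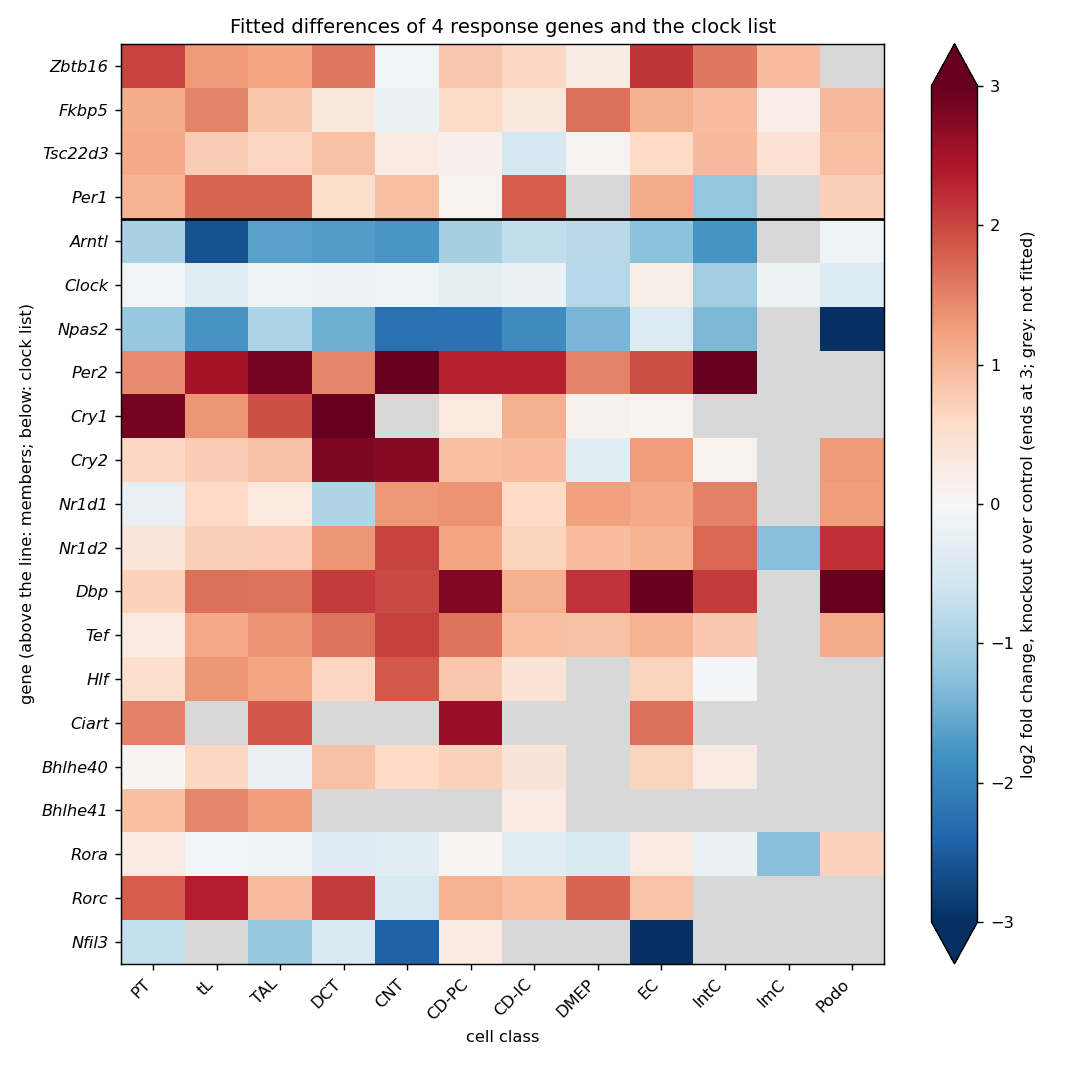
Fitted log2 fold change of knockout over control mice (color) of 4 response genes and of the 17 clock genes that could be fitted (rows) in each cell class (columns), red for higher and blue for lower in knockout mice. *Per2* and *Dbp* are above 0 and *Arntl* and *Npas2* below 0 in each class where they could be fitted.

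The clock list had the largest share of genes past an unadjusted p under 0.05. It held 18 circadian clock genes other than *Per1*, of which 17 could be fitted in 161 tests. edgeR called 0 at an adjusted p under 0.05, and DESeq2 called *Dbp* in CD-PC (adjusted p = 0.016) and *Per2* in TAL (adjusted p = 0.00375), both higher. At an unadjusted p under 0.05, 50 were higher and 17 lower in knockout mice, together 41.6% of the tests against 3.17% of all tests, and the median log2 fold change was 0.69. The 161 tests repeat 17 genes over classes of the same 4 mice and are not independent of each other. The list was also chosen with earlier results of these data known, so this share is a description. Without knockout mouse 1, edgeR called 21 higher and 7 lower at an adjusted p under 0.05, without control mouse 1 it called 7 and 5, without control mouse 2 it called 4 and 0, and without knockout mouse 2 it called 1 and 0.

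The members of this list lay on both sides of 0. *Per2*, a repressor of the clock, had fold changes above 0 in 10 of 10 classes with a median of 2.32, and *Dbp*, a target of the clock, in 11 of 11 with a median of 2.10. In TAL *Per2* stood at 7.37 and 12.6 CPM in the control mice and at 26.6 and 121 CPM in the knockout mice. *Arntl*, which encodes the activator BMAL1, and *Npas2*, a partner of it, had fold changes below 0 in 11 of 11 classes, with medians of -1.24 and -1.46. In CNT, where *Zbtb16* and *Fkbp5* overlapped, *Arntl* had 140.2 and 184 against 80.6 and 8.61 CPM and *Per2* 6.78 and 8.36 against 30.6 and 136 CPM. In CD-PC *Dbp* had 10.5 and 5.66 against 49.1 and 61.3 CPM. The hour at which each mouse was killed was not given in the sources used here. The part of the clock genes' shift in the values of *Zbtb16*, *Fkbp5*, *Tsc22d3* and *Per1* was not tested.

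The metal and oxidative stress list, 11 genes that answer metals or oxidants, gave 98 tests. edgeR and DESeq2 called 0, and at an unadjusted p under 0.05, 1 was higher and 4 lower, together 5.10% against 3.17% of all tests, with a median log2 fold change of -0.07. *Mtf1*, which encodes the factor that binds metal response elements, had a median of -0.04. The immediate early and heat shock list of 16 genes, of which 15 were measured, gave 124 tests, of which edgeR and DESeq2 called 0. There, 2 were higher and 8 lower at an unadjusted p under 0.05, together 8.06% against 3.17% of all tests, with a median of -0.08. *Egr1* had fold changes below 0 in 5 of 6 classes, and *Hspa1b* in 9 of 10.

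The genes whose pattern was most like each of the 8 were found among 11051 genes by Pearson's r of mean log2(CPM + 1) over the 12 classes, which share libraries. They were *Samd4b*, *Usp28* and *Camta2* for *Zbtb16* (r = 0.91, 0.87 and 0.86), *Ncoa2*, *8030462N17Rik* and *Snapc3* for *Fkbp5* (0.91, 0.88 and 0.85), *Lasp1*, *Cebpb* and *Anxa1* for *Tsc22d3* (0.92, 0.92 and 0.89), and *Pgs1*, *Raver2* and *Epha6* for *Per1* (0.82, 0.82 and 0.81). For *Nr3c1* they were *Cela1*, *Parp3* and *Plcb1* (0.90, 0.89 and 0.86) and for *Errfi1* *Trpc1*, *Esr1* and *C1qtnf3* (0.95, 0.93 and 0.92). *Ints6l* and *Slc16a7* were among the 3 genes most like *Mt1* (0.88 and 0.88), and *Mt2* was most like *Tle2*, *Slc16a7* and *Mecomos* (0.94, 0.93 and 0.92). *Mt1* and *Mt2* had an r of 0.84 with each other, and *Zbtb16* and *Fkbp5* one of 0.20.

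A different set came up when the deviations of each mouse from its class mean were compared, over 48 values of 4 mice in 12 classes. *Zbtb16* was then most like *Xpo7*, *Dbp* and *Per2* (r = 0.76, 0.70 and 0.70), *Fkbp5* like *Ccnd3*, *Per2* and *Atp6v1h* (0.74, 0.68 and 0.66) and *Tsc22d3* like *Zbtb16*, *Slbp* and *Fkbp5* (0.69, 0.67 and 0.66). *Per1* was most like *Sugct*, *Stk19* and *Hnrnpa3* (0.80, 0.76 and 0.76) and had an r of 0.07 with *Zbtb16*. *Nr3c1* was most like *Sh2d4a*, *Uvrag* and *Mgat5* (0.62, 0.58 and 0.57) and *Errfi1* like *Slc47a1*, *Glyat* and *Nhs* (0.86, 0.84 and 0.82). For *Mt1* they were *Snx17*, *Hspa5* and *Pcbp1* (0.66, 0.64 and 0.59) and for *Mt2* *Nop56*, *Vamp7* and *C230088H06Rik* (0.86, 0.84 and 0.79). These 48 values come from the same 4 libraries and are not independent. No minimum of UMIs in a class was set, so values from a few UMIs had the same weight as others. In ImC of control mice 1 and 2 and knockout mice 1 and 2, *Per1* had 2, 2, 2 and 0 UMIs and *Mt2* 0, 2, 0 and 1. How far each r rests on such values was not tested.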

How the data were processed

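Nuclei from 4 kidneys were sequenced with 10x Genomics 3' v3.1 chemistry, and the deposited UMI counts were made by the authors with Cell Ranger 3.0.2 on mm10. The submitters' processing notes also name Seurat 3.2.1.35. All barcodes were deposited, without cell types. From each library the 10000 deepest barcodes were taken, and kept if they held 500 to 4000 genes and under 5% mitochondrial UMIs. Seurat 5.3.0 in R 4.3.3 served to integrate the libraries and cluster nuclei on 2000 variable genes less 28 listed genes, using 30 dimensions and a resolution of 0.5, and clusters were named from markers of kidney cell types, so names were rebuilt here. Scrublet in scanpy 1.11.5 (Python 3.11.15) called 236 to 512 doublets per library, which were kept in the counts and left out as an alternative. Clusters of damaged (863 nuclei), mixed (392) and unnamed (173) nuclei were not used. The damaged nuclei numbered 255 in control mouse 1, 566 in knockout mouse 1, 27 in control mouse 2 and 15 in knockout mouse 2.

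The sums of counts in each class of each mouse entered edgeR 4.0.16 (quasi-likelihood test, TMM, a minimum of 10 UMIs in all per gene), with Benjamini-Hochberg adjustment within a class. Standard errors of edgeR's log2 fold changes were derived from its F statistic. DESeq2 1.42.0 was an alternative. On simulated counts, 83.9% of 4-fold and 17.7% of 2-fold changed genes were recovered in PT (17818 genes), 66.3% and 8.82% in CD-PC (13635 genes) and 74.2% and 9.01% in EC (12922 genes). The simulated counts had 1 fixed dispersion for all genes, which was not estimated from these mice. These shares therefore do not give the recovery in the real counts. Mice of a genotype are separate animals. Members and lists were chosen with earlier results of these data known. Genes were named as members, as the 3 most alike to a member, or, where said, after their values were seen. For *Mt1*, 1 of the 3 is not reported here. The other alternatives were filters, free RNA subtraction, other clusterings, a replicate block and each mouse left out.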

Additional observations from a re-analysis of the deposited data

Results flagged for a closer look

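*Per1* was higher in both knockout mice in CD-IC and lower in both in IntC, a difference of 2.99 between log2 fold changes that rests on 31 and 11 UMIs. *Errfi1* was higher in both in Podo and lower in both in IntC, a difference of 1.28 from 49 and 573 UMIs. *Mt2* was higher in both in CD-PC and lower in both in EC, a difference of 1.27 from 70 and 27 UMIs. These 3 differences between classes were not tested.

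In RNA outside nuclei, which the comparison of classes did not use, both knockout libraries were above both control libraries for 4 of the 8 genes, and for 27.9% of all genes. The mean of the knockout libraries was 2.43 times that of the control libraries for *Tsc22d3*, 2.10 times for *Fkbp5*, 1.90 times for *Zbtb16* and 1.54 times for *Errfi1*.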

How the results depend on the processing

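With all mice and the settings given above, edgeR called 0 genes of any list at an adjusted p under 0.05. The 8 genes were chosen on this contrast, so calls on them are circular and are no test of them. Such calls only show how the processing moves a count, which was 0 with those settings and all mice. Their higher calls numbered 1 with DESeq2, 1 without TMM, 5 with no filter, 1 with the listed genes kept in clustering and 1 with mitochondrial UMIs under 1%, and 0 to 5 with each mouse left out. For the clock list, higher calls numbered 2 with DESeq2, 17 with no filter (6 lower), 2 with mitochondrial UMIs under 1% and 1 to 21 with each mouse left out (0 to 7 lower). The glucocorticoid response list had 1 higher and 2 lower calls with no filter and 1 lower with DESeq2. The receptor machinery list had 1 higher call with no filter and 0 to 1 with each mouse left out. The metal list had 1 lower call with no filter and 0 to 1 with each mouse left out, and the immediate early list 0 to 1 lower. Leaving out a mouse leaves 1 sample in a genotype, which is assumed to vary like the others. The cause of these shifts was not tested.

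With the replicate number as a block, higher calls numbered 8 for the 8 genes, circular as above, 22 for the clock list (6 lower), 4 for the glucocorticoid response list (2 lower) and 1 for the receptor machinery list, with 1 lower call in the metal list and 1 in the immediate early list. The labels do not say that the numbers pair mice or what they stand for. With 2 pairs, the difference of mouse 1 from mouse 2 in controls was correlated over genes with that in knockouts. The r ran from 0.0065 in ImC to 0.37 in PT. How much of the spread between mice of 1 genotype follows the replicate number was not tested.

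Over 15 settings the median log2 fold change over classes was 1.06 to 1.59 for *Zbtb16*, 0.47 to 1.46 for *Fkbp5*, 0.33 to 1.12 for *Tsc22d3* and 0.51 to 1.68 for *Per1*. It was -0.32 to 0.0012 for *Nr3c1*, -0.39 to 0.44 for *Errfi1*, -0.25 to 0.28 for *Mt1* and -0.48 to 0.19 for *Mt2*. The class with the highest level was the same for 5 of the 8 genes after free RNA was subtracted. Depth limits *Per1* and *Mt2*, with 1538 and 906 UMIs over all classes.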
